A study of Canis lupus familiaris and Eptesicus fuscus and Equus caballus with 6 samples.

Results

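Small RNAs of exactly 32 nt, the longest length listed, were taken from the small RNA files of adult testes of dog (Canis lupus familiaris), big brown bat (Eptesicus fuscus) and horse (Equus caballus). Every row whose sequence was 32 nt long was kept, and rows with the same sequence were summed. This gave 130273 distinct sequences with 2773032 reads in the dog, 31335 sequences with 280542 reads in the bat and 209704 sequences with 2103976 reads in the horse. Over the files they were 371312 of 7545354 distinct sequences. The study sequenced the small RNA fraction of TRIzol-extracted, snap-frozen testis to follow piRNAs and transposable elements in mammals with different element activity. Each species had 1 small RNA library, and the sources used here do not give the number of animals behind a library. No treatment or genetic change is named for any animal. With 1 library per species no difference between species could be tested, and each comparison below is between these libraries.

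piRNAs are small RNAs that guide PIWI proteins to transcripts of transposable elements in the germ line, and many of them begin with U. They have a fixed 5′ end and a trimmed, variable 3′ end, so that length forms of the same piRNA share their start. Testis also holds fragments of longer RNAs in the same size range: 5′ fragments of tRNAs, made by a cut at or near the anticodon loop, ends of Y RNAs, which are short RNAs that bind the Ro60 protein, and pieces of ribosomal RNA (rRNA) and of the small nuclear RNAs (snRNAs) of the spliceosome.

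The most read sequences carry the first result, so they are shown before their values. Names were given by recognising the printed sequence, after the read counts had been seen and without a reference sequence, and a sequence not recognised has no name. Sequences with a name are written 5′ to 3′ in the sense of the RNA, with T for U, and capitals mark the first and the last base.
tRNA-Gly-GCC 5′ fragment, most read in the dog and in the horse: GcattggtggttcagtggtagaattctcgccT
tRNA-Gly 5′ fragment, second form, dog: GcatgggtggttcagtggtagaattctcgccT
tRNA-Val 5′ fragment: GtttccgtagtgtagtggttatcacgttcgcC
tRNA-Val 5′ fragment, second form, dog: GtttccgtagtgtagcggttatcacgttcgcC
Y4 RNA 5′ end: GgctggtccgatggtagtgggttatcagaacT
Y5 RNA 5′ end, dog: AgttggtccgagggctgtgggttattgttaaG
5S rRNA 3′ end, most read in the bat: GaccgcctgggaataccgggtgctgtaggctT
5S rRNA 3′ end, second form, bat: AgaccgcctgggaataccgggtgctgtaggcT
5S rRNA 3′ end, longest tail, bat: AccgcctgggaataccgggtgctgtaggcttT
28S rRNA 3′ end, bat: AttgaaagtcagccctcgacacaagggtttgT
U4 snRNA 3′ end, bat: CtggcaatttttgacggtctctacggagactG

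A few of these fragments held much of the reads at this length. Reads of 32 nt were 6.71% of all listed reads in the dog (exact Clopper-Pearson 95% interval 6.70 to 6.72%), 4.81% in the bat (4.80 to 4.83%) and 5.87% in the horse (5.86 to 5.88%). PCR copies were counted without molecular identifiers, so this and all later intervals cover counting error only. A sequence was called abundant where it held at least 0.1% of the 32 nt reads of its file. By this rule 40 sequences in the dog held 67.3% of the 32 nt reads (67.25 to 67.37%), 92 in the bat held 57.2% (56.98 to 57.35%) and 82 in the horse held 35.8% (35.73 to 35.86%). The least read abundant sequence had 2859 reads in the dog, 282 in the bat and 2104 in the horse, and the next sequence down had 2709, 280 and 2089 reads, so that the bound falls in a continuous series. The horse share depends most on the bound: it was 16.8% with a bound of 1% and 59.7% with 0.01%.

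In each file the reads were more concentrated in the leading sequence at 32 nt than at 31 nt. The most read sequence held 47.5% of the 32 nt reads in the dog, 24.7% in the bat and 7.43% in the horse. At 31 nt the most read sequence held 3.58% of the reads of that length in the dog, 7.58% in the bat and 0.871% in the horse. At 29 nt, where each file has far more reads, it held 3.50%, 15.0% and 2.63%. The 1000 most read sequences held 82.3% of the 32 nt reads in the dog, 77.5% in the bat and 59.6% in the horse, against 65.7%, 66.1% and 49.3% at 31 nt.

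Sequences with fewer than 10 reads, called low-count, were the bulk of the list in number. They were 120139 of the 130273 sequences in the dog (92.2%), 29273 in the bat (93.4%) and 194317 in the horse (92.7%). Their share of the 32 nt reads was 8.25% in the dog, 17.1% in the bat and 16.6% in the horse. Sequences read once numbered 71391 in the dog, 21575 in the bat and 126547 in the horse. The sequences between the low-count and the abundant ones, 10094 in the dog, 1970 in the bat and 15305 in the horse, held 24.4%, 25.7% and 47.6% of the 32 nt reads.

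Which RNAs were abundant differed between the libraries. Of the abundant sequences, 13 of 40 were recognised in the dog, 22 of 92 in the bat and 9 of 82 in the horse, and these held 61.3%, 38.6% and 15.0% of the 32 nt reads. In dog the 5′ fragments of tRNAs led, with 9 sequences and 55.0% of the 32 nt reads, followed by Y RNA 5′ ends with 3 sequences and 5.996%. In horse 5 tRNA fragments held 9.74% and 2 Y RNA ends 4.70%. In bat 4 tRNA fragments held 1.07% and 1 Y RNA end 0.201%, while 9 pieces of rRNA held 34.2% and 8 pieces of snRNA 3.06%. Recognised pieces of rRNA among the abundant sequences held 0.321% of the 32 nt reads in the dog and 0.530% in the horse. These shares count recognised sequences only and are too low where an unnamed sequence is a piece of the same kind of RNA. The bat sequence of rank 2 by reads has no name and held 2.90% of the 32 nt reads.

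The end of the parent RNA that the fragments came from also differed. All 13 recognised sequences in the dog and 8 of the 9 in the horse began at or within a base of the 5′ end of the parent RNA, and the remaining horse sequence was an inner piece of 18S rRNA with 2346 reads. In bat 9 of the 22 recognised sequences ended at the 3′ end or within a few bases of it and held 34.6% of the 32 nt reads, 6 came from a 5′ end (2.64%) and 7 from inside the RNA (1.31%).

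The tRNA-Gly-GCC fragment, the 5′ part of the tRNA that carries glycine, was the most read 32 nt sequence in the dog and horse. It had 1317469 reads in the dog (47.5% of the 32 nt reads, 47.45 to 47.57%), 1558 reads in the bat (0.555%, 0.528 to 0.584%) and 156384 reads in the horse (7.43%, 7.40 to 7.47%). Its length forms with the same 5′ end were distributed unlike each other in the 3 files. In dog the forms of 30, 31 and 32 nt had 48118, 139693 and 1317469 reads. In horse they had 122226, 52785 and 156384 reads, and in the bat 4918, 3916 and 1558. The 32 nt form was thus the most read listed form in the dog and horse, by far in the dog, and below the 30 nt form in the bat. Forms of 24 to 29 nt had at most 177 reads each in the dog, 312 in the bat and 890 in the horse. Longer forms were not analysed here, because 32 nt is the upper end of the list. Where a fragment is not listed in a file, its count of 0 allows up to 3 reads by counting error. That is 0.000108% of the 32 nt reads in the dog, 0.00107% in the bat and 0.000143% in the horse. The bound does not cover a filter on the list or a sequence difference between species that hides an exact match.

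The tRNA-Val fragment, from a tRNA that carries valine, was nearly all 32 nt long in the dog and horse, but not in the bat. The 32 nt form of the fragment had 125089 reads in the dog, 294 in the bat and 37581 in the horse. Its 31 nt form had 729, 106 and 1531 reads and its 29 nt form 537, 534 and 840. The 29 nt form was thus the most read listed form in the bat. A form that starts at the next base, and so ends at the next base too, had 2875 reads in the dog and 4847 in the horse and is not listed in the bat. The tRNA-Asp-GTC fragment, from an aspartate tRNA, had 1160 reads at 32 nt in the dog, 414 in the bat and 3506 in the horse, against 2205, 106 and 2425 at 31 nt. In dog a fragment of mitochondrial tRNA-Met had 7235 reads at 32 nt, 303 at 31 nt and 149 at 30 nt.

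Second forms of the same tRNA family were abundant in the dog. The tRNA-Gly fragment and its second form differ by T5G, counted from the 5′ end with the more read form first, and had 1317469 and 40984 reads. The second form is not listed at 32 nt in the horse and had 87 reads in the bat. The tRNA-Val forms differ by T16C, with 125089 and 16071 reads, and the second form is not listed in the bat or horse. The tRNA-Lys-CTT fragment, from a lysine tRNA, and its second form differ by A29G and had 4470 and 2887 reads in the dog, 36 and 2 in the bat and 1086 and 925 in the horse. In the dog and horse these Lys forms also differed in length: the second form was read 4606 times at 29 nt in the dog and 14206 times in the horse, whereas the first form was read 59 and 180 times there. In the bat it was the first form that was more read at 29 nt, with 240 reads against 22.
Differing bases are in capitals in these pairs from dog.
tRNA-Gly, more read form: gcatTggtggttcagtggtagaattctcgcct
tRNA-Gly, second form: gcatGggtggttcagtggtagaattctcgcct
tRNA-Lys-CTT, more read form: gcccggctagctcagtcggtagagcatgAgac
tRNA-Lys-CTT, second form: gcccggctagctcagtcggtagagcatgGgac

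Most other 1-base neighbours of the leading sequences are not listed. Of the 96 sequences of 32 nt that differ by 1 base from the dog tRNA-Gly-GCC fragment, 4 are listed in the dog on either strand. They are T5G with 40984 reads, G7A with 2483, G29A with 69 and G18A with 47, together 3.31% of the reads of the fragment itself. For the horse tRNA-Gly-GCC fragment 1 of 96 is listed, G15A with 1749 reads. For the bat 5S rRNA fragment 3 of 96 are listed, with 331 reads together, or 0.478% of the 69190 reads of the fragment. No such neighbour of the Y4 fragment is listed in the dog or horse. A filter on mismatches is not given in the sources used here, and its part in these counts was not tested.

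Y RNA ends formed the next group in the dog and horse. The Y4 fragment had 142691 reads at 32 nt in the dog (5.15%), 122 in the bat and 95866 in the horse (4.56%), and its 31 nt form had 4506, 52 and 12556 reads. The Y1 fragment had 11652 reads in the dog and 2948 in the horse and is not listed in the bat. It differs from Y4 over these 32 bases by T12A, G20A, A27T, G28C and C31T. The Y5 fragment was most read at a shorter listed length. In dog it had 56404 reads at 31 nt and 11915 at 32 nt. In bat the Y5 fragment differs from that of dog by G12C and C15T, had 564 reads at 32 nt and was most read at 26 nt, with 4894 reads. Neither Y5 form is listed in the horse at 24 to 32 nt. Among the listed lengths Y4 and Y1 were therefore most read at 32 nt in the dog and horse. For Y1 in the horse this form held 50.7% of the listed reads with the same 5′ end. Y5 was most read below 32 nt in the dog and bat. Longer forms are not listed.

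Forms of the 3′ end of 5S rRNA, the small rRNA of the large ribosomal subunit, were the main fragments in the bat. The 3′ end fragment had 69190 reads at 32 nt in the bat (24.7% of the 32 nt reads, 24.50 to 24.82%), 462 in the dog and 365 in the horse. The leading forms differ in where they stop: the sequences printed above end in gct, gctt and gcttt, with 7821, 69190 and 7051 reads. Shorter forms with the same 3′ end as the leading one were read 62291 times at 31 nt and 38170 times at 30 nt in the bat.

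Other bat fragments included ends of a 28S rRNA and pieces of spliceosomal RNAs. The 28S 3′ end fragment had 6083 reads in the bat and 893 in the dog and is not listed in the horse. The U4 3′ end fragment had 4747 reads in the bat at 32 nt, and forms with the same 3′ end had 8912 reads at 26 nt and 6447 at 27 nt. It is not listed in the dog or horse at 32 nt. The U1 3′ end fragment had 825 reads at 32 nt, below the 3481 reads of its 30 nt form. The recognised inner pieces of U5 had up to 1244 reads and the U11 3′ end had 307. U1, U4 and U5 are parts of the major spliceosome, and U11 is a part of the minor one. Fewer reads of these RNAs in the dog and horse, and sequence differences between species that hide them from an exact match, cannot be told apart here.

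By reads, the sequences found in more than 1 species were mostly fragments of the recognised RNAs. On either strand 251 of the 32 nt sequences are listed in the dog, bat and horse, of which 82 share a run of 20 nt with a recognised sequence. The tRNA-Gly-GCC fragment was among the 3 with the highest lowest share. Of the dog sequences 0.332% are listed in the bat and 0.642% in the horse, yet these sequences held 60.1% and 59.5% of the dog 32 nt reads. For bat, 1.38% of the sequences are listed in the dog with 37.6% of the reads, and 1.17% in the horse with 35.1%. For horse, 0.399% are listed in the dog with 15.98% of the reads, and 0.175% in the bat with 15.0%. Without sequences related to a recognised one by a run of 20 nt, the shared sequences held between 0.302% of the 32 nt reads (horse sequences found in the bat) and 1.89% (bat sequences found in the dog).

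The 169 sequences found in the 3 files that do not share such a run still hold pieces of known RNAs. The 3 with the highest lowest share among them are shown in the alphabetically first of both strands, and each was recognised as the reverse complement of a 5′ tRNA fragment.
From tRNA-Asp: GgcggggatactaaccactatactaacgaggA
From tRNA-Cys: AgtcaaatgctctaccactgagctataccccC
From tRNA-Glu: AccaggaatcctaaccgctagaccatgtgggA
The tRNA-Asp piece had 612 reads in the dog, 148 in the bat and 1451 in the horse. The tRNA-Cys piece had 1223, 16 and 151 reads, and the tRNA-Glu piece 229, 15 and 209. Each stayed under 0.1% of the 32 nt reads of its file, and sequences of this kind remain among those called unrelated below.

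The abundant sequences without a name are shown next, as listed, since a larger share of them than of the recognised ones had a first T or a last A. A sequence without a name may still be a piece of a known RNA. For the bat sequence of rank 2, forms of 24 to 31 nt shared its listed start in 15957 reads and its listed end in 266. The leading bat 5S fragment also shared its listed start more, in 148054 reads, and that start is the 3′ end of the RNA. The first T of the rank 2 sequence therefore need not be a first U of its RNA. Capitals again mark the first and last base.
Dog, rank 5 by reads: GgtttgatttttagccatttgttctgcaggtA
Dog, rank 7 by reads: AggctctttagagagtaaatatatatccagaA
Bat, rank 2 by reads: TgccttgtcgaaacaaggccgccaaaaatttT
Horse, rank 3 by reads: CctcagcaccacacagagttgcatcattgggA
Horse, rank 5 by reads: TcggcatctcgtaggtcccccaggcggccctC
Horse, rank 6 by reads: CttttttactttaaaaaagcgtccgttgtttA

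Unnamed abundant sequences held 5.98% of the 32 nt reads in the dog (27 sequences), 18.6% in the bat (70) and 20.8% in the horse (73). The sequences just printed had 27070 and 14567 reads in the dog, 8131 in the bat and 39894, 22984 and 20114 in the horse. The files write an RNA either in its own sense or as its reverse complement: of the recognised sequences 6 of 13 in the dog, 16 of 22 in the bat and 7 of 9 in the horse are listed as the reverse complement, and no 32 nt sequence is listed together with its own reverse complement. A U at the start of an RNA is therefore listed as a first T or as a last A. Of the unnamed abundant sequences 22 of 27 in the dog (81.5%), 58 of 70 in the bat (82.9%) and 62 of 73 in the horse (84.9%) had a first T or a last A. Of the recognised ones 3 of 13, 5 of 22 and 5 of 9 did. Over all 32 nt sequences the share was 64.5% in the dog, 66.0% in the bat and 71.9% in the horse. Over all abundant sequences of 31 nt it was 91.1%, 80.9% and 90.6%. The unnamed 32 nt shares were below those 31 nt shares in the dog and horse and slightly above in the bat, with overlapping intervals. The counts include RNAs that begin with U and RNAs that end in A. The intervals are wide for the recognised ones, 5.04 to 53.8% in the dog, 7.82 to 45.4% in the bat and 21.2 to 86.3% in the horse, and overlap those of the unnamed ones in the horse. The names were given after the sequences had been seen, so these counts are a description.

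By reads the end bases at 32 nt differed with and without the recognised fragments. T was the first base of 15.6% of the dog, 25.2% of the bat and 36.5% of the horse 32 nt reads as listed, and A was the last base of 15.5%, 27.4% and 43.1%. Without sequences that share a run of 20 nt with a recognised one, a first T was found on 39.5% of the remaining reads in the dog, 41.3% in the bat and 42.3% in the horse. The last base was then A in 39.4%, 41.8% and 50.3%. The sequences left out were 204 in the dog, 279 in the bat and 204 in the horse and held 61.7%, 39.9% and 15.2% of the 32 nt reads. Sequences related in the same way held 3.93%, 15.6% and 1.42% of the reads at 31 nt, and 0.135%, 2.01% and 0.469% at 29 nt. Without them the 32 nt reads were 2.57% of all listed reads in the dog, 2.89% in the bat and 4.98% in the horse.

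Among the low-count sequences T led as first base and A as last base in each library, with the highest shares in the horse. As listed, 36.6% of them had a first T in the dog (36.4 to 36.9%), 36.8% in the bat (36.2 to 37.3%) and 39.6% in the horse (39.4 to 39.8%). A was the last base of 36.2% in the dog (35.9 to 36.5%), 37.1% in the bat (36.5 to 37.6%) and 42.0% in the horse (41.8 to 42.2%). The other bases were lower at both ends: A was first in 24.4%, 24.1% and 24.7%, and T was last in 24.6%, 24.02% and 23.4%. The dog and bat intervals overlapped for the first T and the horse share was above both. A first T or a last A was found on 64.2% of the low-count sequences in the dog, 65.3% in the bat and 71.2% in the horse. A 5′ U and a 3′ A of an RNA both give these listed bases, so the share does not measure a 5′ U alone.

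Against shorter sequences, those of 32 nt had the lowest share of these bases. Among low-count sequences a first T was found on 44.1% at 29 nt, 41.7% at 30 nt, 38.8% at 31 nt and 36.6% at 32 nt in the dog. In bat the shares were 42.7%, 41.7%, 40.1% and 36.8%, and in the horse 45.1%, 44.6%, 42.3% and 39.6%. The last A fell in the same order, from 44.4% to 36.2% in the dog, from 43.4% to 37.1% in the bat and from 46.5% to 42.0% in the horse. Within each file the intervals at 30, 31 and 32 nt did not overlap for either base.

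Most 32 nt sequences extended a shorter one of the same file. A 32 nt sequence was counted as extending where its first or its last 29, 30 or 31 nt are themselves listed. This held for 64.7% of the sequences in the dog (64.5 to 65.0%), 60.6% in the bat (60.0 to 61.1%) and 64.3% in the horse (64.1 to 64.5%), and these held 97.6%, 95.01% and 95.3% of the 32 nt reads. When dog and horse were thinned to the 5828928 reads of the bat file, the shares were 62.4% in the dog and 60.6% in the horse, so that at this depth horse and bat were level and dog stayed above both. Among low-count sequences 61.9% in the dog, 57.8% in the bat and 61.6% in the horse extended a shorter one, and among those read once 52.4%, 46.9% and 51.96%. All abundant sequences did: 40 in the dog, 92 in the bat and 82 in the horse. This was not particular to 32 nt or to that class. All abundant sequences of 31 nt (101, 94 and 106) and of 29 nt (100, 91 and 66) also extended a shorter one. Of the 32 nt sequences between the low-count and the abundant ones, 98.6%, 99.4% and 98.8% did. Measured in the same way against the 3 next shorter lengths, 61.3%, 58.7% and 58.5% of the 31 nt sequences and 45.3%, 47.6% and 49.6% of the 29 nt sequences extended a shorter one, where the number of shorter sequences differs with length.

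The shorter partner was often the more read of the pair, and less often among the abundant sequences. Abundant sequences were chosen for their own reads, so a lower share among them is built into the rule. Of the extending sequences 75.0% in the dog, 70.8% in the bat and 71.97% in the horse had a partner of 29 to 31 nt with more reads than their own. Among abundant ones this held for 17 of 40 in the dog, 34 of 92 in the bat and 30 of 82 in the horse. At 31 nt, against partners of 28 to 30 nt, it held for 13 of 101, 32 of 94 and 24 of 106 abundant sequences. The recognised fragments split by library: 3 of 13 in the dog, 15 of 22 in the bat and 2 of 9 in the horse had a more read partner, against 14 of 27, 19 of 70 and 28 of 73 of the unnamed ones. The most read examples are written below in the listed sense or as its reverse complement, whichever puts the shared end first, with the added bases in capitals.
Dog, no name, 32 nt: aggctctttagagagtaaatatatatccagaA
Dog, its 31 nt partner: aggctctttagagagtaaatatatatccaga
Dog, Y5 RNA, 32 nt: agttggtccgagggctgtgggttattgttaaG
Dog, its 31 nt partner: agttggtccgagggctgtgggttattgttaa
Horse, no name, 32 nt: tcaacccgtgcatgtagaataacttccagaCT
Horse, its 30 nt partner: tcaacccgtgcatgtagaataacttccaga
Horse, no name, 32 nt: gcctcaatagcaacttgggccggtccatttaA
Horse, its 31 nt partner: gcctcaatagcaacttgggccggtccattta

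In dog the first of these had 14567 reads against 24783 for its partner, and the Y5 fragment had 11915 against 56404. In horse the reads were 16978 against 21266 for the partner that lacks 2 bases, and 10540 against 46642 for the other. The bat examples were both 5S rRNA 3′ end forms, with 7821 reads against 26566 and 7051 against 62291. Several of these sequences had shorter relatives at both ends. The first horse example had 44751 reads of 24 to 31 nt that share its listed end and 11431 that share its listed start.

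Sequences that extended no shorter one had few reads. They were 45933 in the dog, 12360 in the bat and 74842 in the horse and held 2.36%, 4.99% and 4.67% of the 32 nt reads. The 2 most read of them had 196 and 89 reads in the dog and 131 and 31 in the bat. The most read one of each is shown as listed.
Dog, extends none, 196 reads: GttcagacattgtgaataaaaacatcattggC
Bat, extends none, 131 reads: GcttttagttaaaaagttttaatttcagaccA

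A sequence that shares its start alone with shorter ones was read as listed, and one that shares its end alone as its reverse complement, since length forms of a piRNA share their 5′ end. No base enters this rule. Among low-count sequences that shared the start alone, the first base was T in 49.7% in the dog, 52.8% in the bat and 55.1% in the horse, and A closed 26.2%, 24.4% and 27.9%. Among those that shared the end alone, the last base was A in 47.5%, 54.5% and 59.2%, and the first base was T in 26.02%, 24.4% and 27.5%. The T or A excess thus lay at the shared end in the 3 files. Sequences that shared both ends had a first T in 38.1%, 39.9% and 39.6%, and those that shared none in 34.4%, 33.3% and 38.3%.

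Read in this way, 37612 sequences in the dog, 9215 in the bat and 67804 in the horse had an assigned 5′ end, of which 49.6%, 49.3% and 50.7% were reversed. The first base was U in 48.7% in the dog (48.2 to 49.2%), 54.5% in the bat (53.4 to 55.5%) and 57.8% in the horse (57.5 to 58.2%). At 29 nt the same rule gave 56.6%, 60.6% and 60.5%, so that 32 nt was lower in each file. The middle class, with 10 reads or more, had a first U in 51.96% of 1659 sequences in the dog, 72.9% of 391 in the bat and 72.6% of 2932 in the horse. Dog was therefore the lowest among all assigned sequences and in the middle class. Nearly all abundant sequences share both ends and could not be read by this rule, which assigned 1 in the dog, 3 in the bat and none in the horse. The rule assumes a fixed 5′ end. The leading bat 5S fragment, which shares both ends and so was not assigned, had forms of 24 to 31 nt that share its 3′ end in 148054 reads and its 5′ end in 27584. Without sequences related to the recognised RNAs, a first U was found on 48.8%, 54.7% and 57.8%, a setting chosen after seeing the data.

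Bases away from the 5′ end were also read in this sense. In ping-pong amplification, where cut transcripts of opposite strands become piRNAs in turn, the partner of a piRNA with a first U has an A at position 10. A stood at position 10 in 38.9% of the assigned 32 nt sequences in the dog (38.4 to 39.4%), 28.7% in the bat (27.8 to 29.6%) and 32.2% in the horse (31.9 to 32.6%). Position 9 held A in 25.1%, 23.4% and 24.6%, and position 11 in 26.7%, 26.7% and 27.4%. The excess over both neighbours was largest in the dog, and in the bat the interval at position 10 lies just above that at position 11 (25.8 to 27.7%). In dog the share at position 10 was 32.8% at 29 nt, 34.1% at 30 nt, 35.8% at 31 nt and 38.9% at 32 nt. In bat it ran from 27.7% at 29 nt to 28.7% and in the horse from 31.6% to 32.2%. The last base was U in 29.4%, 27.95% and 30.98% and A in 25.97%, 24.2% and 27.4%.

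A second base at the same end was rare among listed sequences. Another 32 nt sequence that differs in the last base alone is listed for 0.621% of the low-count sequences in the dog, 0.154% in the bat and 0.402% in the horse, and for 2.07%, 0.711% and 1.01% of the middle class. For the first base the shares were 0.613%, 0.222% and 0.405% of the low-count sequences, and 2.19%, 1.37% and 1.10% of the middle class.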

How the data were processed

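Small RNA of testis was analysed from 1 library each of dog, bat and horse, sequenced as single-end reads of 50 nt per the labels. The authors deposited, for each library, distinct sequences of 24 to 32 nt with raw read counts. The submitters' processing notes name Bowtie, RSEM and CanFam3.1, without versions. Trimming and mismatch filters, like the bat and horse builds, were not given in the sources used here. The mRNA files were not used here.

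Rows with the same sequence were summed, and 32 nt sequences were compared by class, end base and shared ends with Python 3.11.15, numpy 2.4.6 and SciPy 1.17.1 (exact binomial intervals). The counts of extending sequences and of their first U were checked on simulated sequences whose shorter forms kept the 5′ end. This did not cover sequences that share both ends, and it did not check the assumption of a fixed 5′ end. Members, lists and thresholds were chosen with earlier results of these data known. Named sequences are the 6 most read in each file, the 2 most read that extend a more read sequence of 29 to 31 nt, the 2 most read that extend none, and the 3 in the 3 files with the highest lowest share. The recognised RNAs and the pairs of forms were added after their values were seen. Some sequences that these rules name are not reported here. Alternatives changed the denominator, the class bounds, the treatment of sequences read once, the weights, the shorter partner and the depth.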

Additional observations from a re-analysis of the deposited data

How the results depend on the processing

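With 1 library per species no library could be left out, and no spread between animals stands behind any value. No paired analysis was possible because the labels give 1 sample in each group. Of the alternatives tried, 10 values stayed within the counting interval of the value reported and 37 left it. Each value below is for dog, then bat, then horse, unless a species is named. As a share of 26 to 32 nt reads, the 32 nt reads were 6.84%, 5.10% and 6.13%, and without sequences read once 6.84%, 4.79% and 5.93%. With an abundance bound of 1% the abundant sequences held 58.6%, 39.2% and 16.8% of the 32 nt reads, and with 0.01% 78.9%, 75.6% and 59.7%. Without sequences read once, low-count sequences had a first T in 37.6%, 39.7% and 40.7% and a last A in 36.6%, 40.3% and 43.6%. Weighted by reads, the first T came to 37.4%, 38.2% and 40.2%, and the last A to 38.6% in bat and 43.1% in horse. With fewer than 4 reads as the bound, the horse last A was 41.6%. The share that extends a shorter sequence fell to 55.2%, 48.6% and 52.6% where the shorter one needed 2 reads, and to 46.6%, 46.0% and 48.1% where it had to be 31 nt long. Thinned to the bat depth, it was 62.4% in dog and 60.6% in horse. On either strand, a setting chosen after seeing the data, it was 65.7% in dog and 65.0% in horse. With 80% of at least 10 shorter reads on the same end, the first base was U in 52.1%, 56.7% and 58.5%. The order of the libraries for the abundant share and for the first U was the same under these settings.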
